A study of Schmidtea mediterranea with 89 samples.

Results

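A set of 150 planarian transcript identifiers was chosen for a transient peak at 1 day of flat culture, and its levels were followed through all other culture conditions of the study. Its members were chosen by their measured levels in uncultured, flat 1 d and flat 3 d cells of experiment 3, out of 36035 identifiers. Levels are CPM, counts scaled to a common library total after leaving out the 4 most abundant identifiers. The mean had to be at least 1 CPM in uncultured cells and at least 5 CPM after 1 day on flat plates. The log2 ratio of 1 day over uncultured cells, with 1 CPM added to each mean, had to reach 0.8. It then had to be lower by 0.8 or more at 3 days than at 1 day. Of the 11872 identifiers at these minimum levels, 331 passed, and the 150 with the deepest drop after 1 day were kept. Their rise after 1 day and their drop by 3 days in experiment 3 are therefore a description of the choice, with no test.

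Neoblasts are the dividing adult stem cells of planarian flatworms, and their progeny replace all tissues in the uninjured animal and during regeneration. They are usually sorted by the DNA content of living cells, and cells sorted with the dye SiR-DNA are known as SiRNeoblasts. Outside the animal neoblasts have been hard to keep dividing, so that the culture surface, contact with other cells and soluble factors are common variables in such work. The deposited tables give identifiers without gene names, so members are described by identifier and by level, and no role or cell type is given to any of them.

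All 89 libraries came from wild-type SiRNeoblasts of Schmidtea mediterranea, cultured at 22 °C with 20% serum or lysed uncultured, in 5 experiments with 3 libraries per group. Experiment 3 held cells on flat plates and on a polyacrylamide (PA) gel with a stiffness of 100 Pa at 1, 2 and 3 days, in round-bottomed U-bottom plates at 1 and 3 days, and uncultured. Its PA gel group at 3 days had 2 libraries. Experiment 5 held U-bottom plates with planarian extract, U-bottom plates without it and flat plates without it, each at 1, 3 and 7 days, and uncultured cells. Experiment 4 held cells on HFF1 feeders (a human fibroblast line), on MEF feeders (mouse embryonic fibroblasts) and on flat plates, each at 1 and 3 days, and uncultured cells. In experiment 2 cells were kept for 1 day in AggreWell plates, which hold many small pits, or on flat plates. Experiment 1 set aggregates against non-aggregating cells of the same 2-day flat culture. Whether the libraries within a group are separate cultures is not stated, so each p-value reflects the spread among the libraries at hand and this spread may be technical. In such bulk samples fewer cells of a type and less RNA per cell cannot be told apart.

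Total counts per library lay between 3333661 and 42691160, and the 4 most abundant identifiers took 27.0% to 84.6% of them. Their share moved with culture, at 65.4% to 69.8% in flat 1 d libraries of experiment 3 and 54.6% to 58.4% in its uncultured libraries, which is why they were left out of the CPM. A count of 3 corresponded to 0.102 to 2.19 CPM per library. No molecular identifiers are mentioned, so such floors cover counting error only. The number of detected identifiers also moved with culture, at 24779 to 26446 in flat 1 d, 19534 to 22745 in flat 3 d and 27689 to 28415 in uncultured libraries of experiment 3. Its part in the results was not tested.

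In experiment 3 the members were mostly low-abundance transcripts that rose together on day 1 and were back near the uncultured level on day 3. Their median level was 4.19 CPM in uncultured cells, 12.8 CPM at 1 day, 9.65 CPM at 2 days and 4.31 CPM at 3 days on flat plates. The highest member reached 377 CPM at 1 day, 62 members stayed below 10 CPM there and 12 reached 50 CPM. Summed over the 150 members, the level averaged 1208 ± 68 CPM in uncultured cells, 3439 ± 398 CPM at 1 day, 2449 ± 306 CPM at 2 days and 1268 ± 529 CPM at 3 days (SD, n = 3 each). At 2 days 100 members lay nearer to their day-1 than to their day-3 mean on the log2 scale, and 24 lay above the day-1 mean. Both means chose the members, so nothing is read from these counts. Relative to uncultured cells, the median log2 ratio of the members was 1.21 at 1 day, 0.77 at 2 days and −0.13 at 3 days. For all 11872 identifiers at the minimum levels these medians were 0.27, 0.22 and 0.14.

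At 3 days the members had not all come back to the same place. Within 0.5 of the uncultured level on the log2 scale lay 108 members, 16 were above that band and 26 below it. In 134 members every flat 1 d library was above every uncultured library, which held for 43% of the identifiers at the minimum levels. In 111 members every flat 3 d library was below every flat 1 d library, which held for 18.2% of them. Both contrasts belong to the choice as well.

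**Figure D1:**
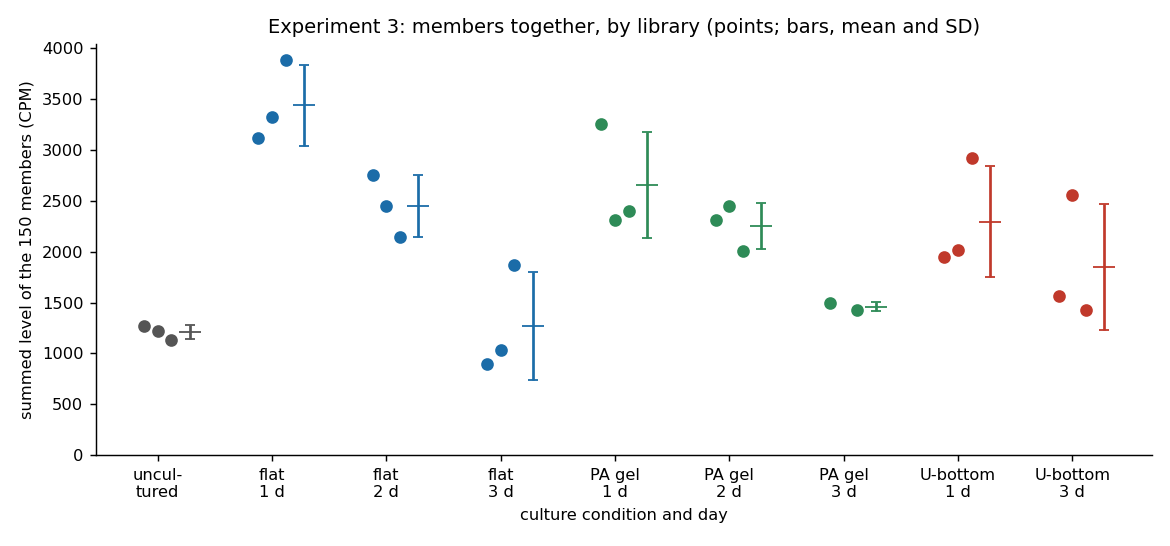
Summed level of the 150 members (CPM, y axis) in each library of experiment 3 by condition and day (x axis). Points are libraries, and the bars beside them give the mean and SD of the group. The flat 1 d libraries sit highest, around a mean of 3439 CPM, and flat 3 d replicate 3 stands above the other two flat 3 d libraries at 1873 CPM.

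The most abundant member, SMED30027690, had 115, 122 and 113 CPM in uncultured cells. It had 375, 394 and 362 CPM at 1 day, 320, 263 and 261 CPM at 2 days, and 127, 195 and 191 CPM at 3 days on flat plates. All libraries of 1 day lay above all others of this course, and the 3-day libraries still lay above the uncultured ones. SMED30012104 had 52.0, 55.9 and 47.5 CPM in uncultured cells, 134, 189 and 187 CPM at 1 day, and 36.8, 64.7 and 92.5 CPM at 3 days. Its 3-day libraries lay on both sides of the uncultured ones. SMED30020501 had 35.9, 31.9 and 30.7 CPM in uncultured cells, 156, 174 and 165 CPM at 1 day, and 57.2, 67.4 and 106 CPM at 3 days. These 3 identifiers with the highest day-1 mean varied little among the day-1 libraries.

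The members with the deepest drop were less even. SMED30001810, first in the ranking with a log2 difference of −4.99 between 3 days and 1 day, had 4.58, 8.59 and 79.1 CPM at 1 day and was at 0 in every flat 3 d library. SMED30022231, the other member at 0 in all flat 3 d libraries, had 15.6, 6.63 and 5.03 CPM at 1 day. SMED30024779 had 26.1 CPM in 1 flat 1 d library and was at 0 in the other two, so its place in the set rests on 1 library. Across the set, 6 members had over 60% of their summed day-1 level in 1 library. At the other end, the last members kept were SMED30006249, with means of 7.88, 14.6 and 6.36 CPM in uncultured, flat 1 d and flat 3 d cells, and SMED30019838, with 8.92, 25.7 and 11.6 CPM. The first left out were SMED30035687 with 4.07, 11.5 and 4.90 CPM and SMED30013725 with 2.74, 6.15 and 2.39 CPM. All 4 had a log2 difference of −1.08 at the precision given, so the edge of the set is a matter of rank and not of kind.

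The scaling and single libraries weighed on which identifiers were kept. On CPM of all identifiers 26 of the 150 members stayed among those kept, and on TMM-scaled CPM 35 did. With the 4 abundant identifiers in the total, the fixed minimums are stricter by construction. On TMM-scaled CPM without these 4, 119 stayed. Flat 3 d replicate 3 had a summed member level of 1873 CPM, against 897 and 1033 CPM in the other two, and was the highest of the flat 3 d libraries for 113 of the 150 members. Without it 808 identifiers passed the thresholds and 86 of the 150 members stayed among the 150 kept. Flat 1 d replicate 3 was the highest of the day-1 libraries for 101 members, and without it 210 identifiers passed and 99 of the 150 stayed.

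The members were also above uncultured cells on the PA gel and in U-bottom plates at 1 day of experiment 3, but by less than on flat plates. The summed level was 2654 ± 520 CPM on the PA gel and 2295 ± 545 CPM in U-bottom plates at 1 day (SD, n = 3 each). The median log2 ratio over uncultured cells was 0.46 on the PA gel and 0.55 in U-bottom plates, against 0.18 and 0.06 for all identifiers at the minimum levels. On the PA gel 128 members and in U-bottom plates 122 members had a mean above the uncultured mean, while 11 and 9 had a mean above the flat 1 d mean. These comparisons share the flat or uncultured libraries that chose the members and are given without a test.

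Within the PA gel and within U-bottom plates, the groups compared between 1 and 3 days hold no library that the choice used. The fit behind their tests held all groups of experiment 3. Its filter, scaling and estimate of the spread therefore also drew on the libraries of the choice. With only the compared groups fitted, more members were called on the PA gel and fewer in U-bottom plates. The 2 PA gel libraries of 3 days had summed member levels of 1492 and 1427 CPM, against 3253, 2313 and 2397 CPM at 1 day. The groups did not overlap. Of the 150 members, 132 had a negative fitted log2 fold change, with a median of −0.72 against −0.07 for all identifiers tested. By edgeR's quasi-likelihood test with Benjamini-Hochberg adjustment over all identifiers, which gives every adjusted p below, 0 members were higher and 5 lower (3.33%) at 3 days than at 1 day. The shares among all 20949 identifiers tested were 0.286% higher and 0.468% lower. The 4 abundant identifiers took 78.0% to 84.6% of the counts at 3 days and 68.3% to 76.7% at 1 day, and their part in this change was not tested.

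SMED30030721 had 5.28 and 3.51 CPM on the PA gel at 3 days, against 28.6, 29.7 and 23.3 CPM at 1 day. Its log2 fold change of −2.50 (SE 0.36, adjusted p = 0.000318) held under every alternative tried. SMED30005834 had 3.49 and 1.24 CPM at 3 days, against 11.7, 18.8 and 16.4 CPM at 1 day (log2 fold change −2.51, SE 0.50, adjusted p = 0.01). Without PA gel 3 d replicate 1 the number of members called was 1, without replicate 2 it was 3, and by DESeq2 it was 14.

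In U-bottom plates the set did not move one way. Summed member levels were 1564, 2560 and 1429 CPM at 3 days, against 1946, 2016 and 2923 CPM at 1 day, and the groups overlapped. The median log2 fold change was −0.04, against 0.03 for all identifiers, and 74 of 150 members had a positive one. The median ranged over −0.46 (without U-bottom 3 d replicate 2) to 0.37 (without U-bottom 1 d replicate 3). Called were 1 member (0.667%) higher and 7 (4.67%) lower, against 1.77% and 2.53% of all identifiers tested. SMED30001376 had 12.0, 36.0 and 33.6 CPM at 3 days, against 121, 86.8 and 130 CPM at 1 day, and fell by 2.12 on the log2 scale (SE 0.28, adjusted p = 1.45e-05). SMED30003789 had 2.33, 3.57 and 1.94 CPM at 3 days, against 5.74, 17.7 and 10.2 CPM at 1 day, and fell by 2.15 on that scale (SE 0.48, adjusted p = 0.00642). The call of SMED30003789 was lost without U-bottom 1 d replicate 2. The number called was 4 without that library, 13 without U-bottom 3 d replicate 1 and 13 without U-bottom 3 d replicate 2.

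The member called higher in U-bottom plates at 3 days was SMED30017473, with an adjusted p of 0.0267 and overlapping libraries. SMED30001376, SMED30030721 and SMED30025553, chosen after their values were seen, were lower at 3 days both in U-bottom plates and on the PA gel. That is 2.00% of the members, against 0.286% of all identifiers. SMED30001376 fell on the PA gel to 31.8 and 29.4 CPM at 3 days, against 136, 107 and 132 CPM at 1 day (log2 fold change −1.90, SE 0.32, adjusted p = 0.00235). Without PA gel 3 d replicate 1 this call was lost.

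**Figure D2:**
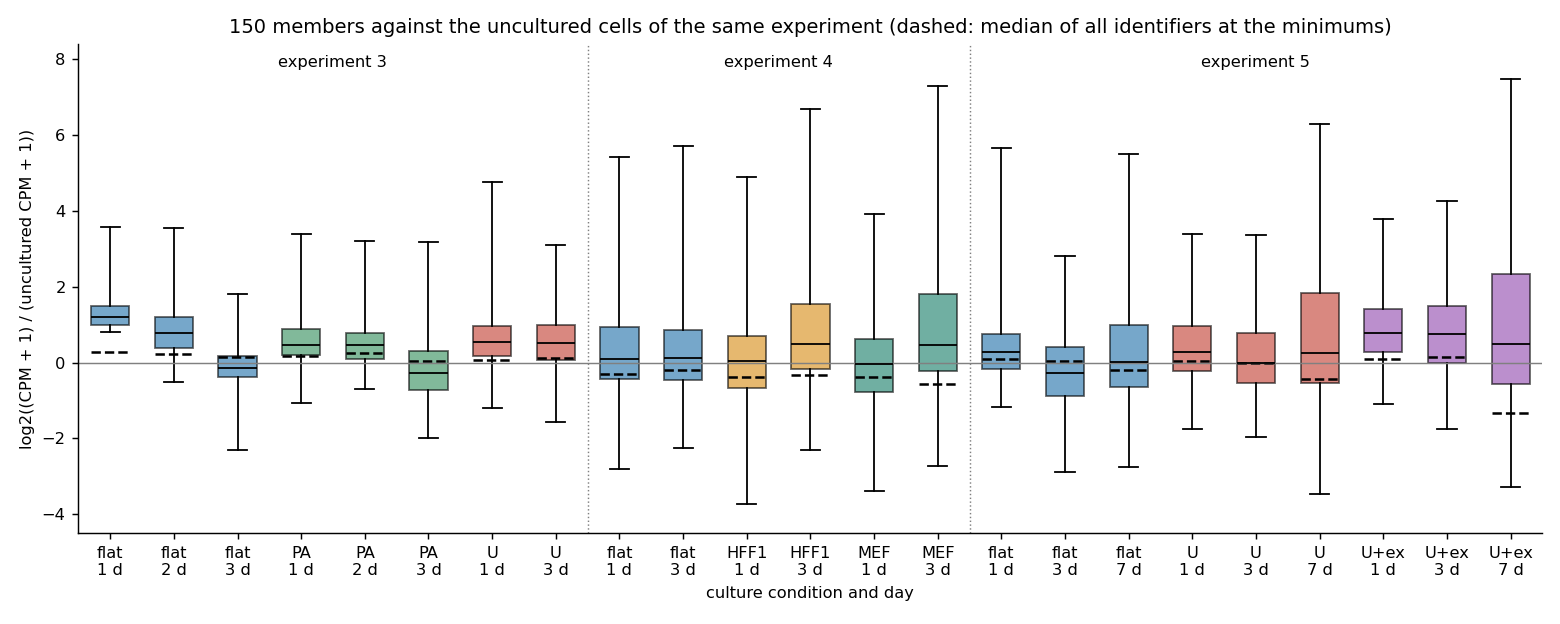
Log2 ratio of group means over the uncultured cells of the same experiment, with 1 CPM added (y axis), for the 150 members in each cultured group (x axis; U, U-bottom plates; U+ex, with extract; PA, polyacrylamide gel). Boxes span the quartiles with the median as a line, whiskers reach the lowest and highest member, and dashes give the median of the 11872 identifiers at the minimum levels. Flat plates of experiment 3 chose the members, with a median of 1.21 at 1 day, and the spread widens at 7 days of experiment 5.

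Experiment 5 repeated the flat course with other libraries and added a later day. The summed member level averaged 935 ± 81 CPM in uncultured cells, 1800 ± 99 CPM at 1 day, 1061 ± 85 CPM at 3 days and 1807 ± 202 CPM at 7 days on flat plates (SD, n = 3 each). The day-1 libraries, at 1884, 1826 and 1691 CPM, lay above all uncultured and all 3-day libraries. The summed level thus had the day-1 peak of experiment 3 at a lower height, followed by a second high level at 7 days. Detected identifiers numbered 17232 to 18675 at 1 day, 15836 to 16340 at 3 days and 22061 to 22812 in uncultured cells, and 23 to 38 members at 1 day, 49 to 59 at 3 days and 15 to 19 in uncultured cells were at 0. The part of this lower detection at 3 days in the drop was not tested.

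Of the 150 members, 137 passed the low-count filter of experiment 5. In flat plates at 1 day against uncultured cells, 90 of them had a positive log2 fold change, with a median of 0.34 against −0.11 for all identifiers tested. Between 3 days and 1 day the median was −0.93 against 0.00, and 40 had a positive fold change. With 1 library left out the medians were 0.16 (without flat 1 d replicate 1) to 0.56 (without uncultured replicate 1) in the first step and −1.15 to −0.73 in the second. These 2 steps share the flat 1 d libraries. Few single members passed the test. Called were 1 member higher (0.730%) and 0 lower at 1 day against uncultured cells, where 0.405% of all identifiers were called higher and 0.281% lower. At 3 against 1 day 0 members were called higher and 2 lower (1.46%), against 0.223% and 0.103%. An unadjusted p under 0.05 was found for 13 members (9.49%) in the first step, against 10.8% of all identifiers, and for 37 (27.0%) in the second, against 12.7%. DESeq2 called 2 and 14.

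The member called at 1 day was SMED30027690, which was also the most abundant member in experiment 3. It had 359, 417 and 383 CPM at 1 day, against 68.1, 113 and 122 CPM in uncultured cells. Its log2 fold change was 1.87 (SE 0.29, adjusted p = 0.000212), and the call held under every alternative tried. At 3 and 7 days on flat plates it had 232, 371 and 236 CPM and 228, 246 and 211 CPM, above all uncultured libraries.

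SMED30023337 showed the drop. It had 5.26, 7.68 and 10.6 CPM at 3 days, against 37.0, 68.5 and 49.5 CPM at 1 day (log2 fold change −2.70, SE 0.57, adjusted p = 0.0346), and 14.7, 13.5 and 18.6 CPM in uncultured cells. All 3-day libraries lay below all others of this pair and below the uncultured ones. SMED30026062 was at 0 in all 3 libraries of 3 days, against 19.4, 16.7 and 3.15 CPM at 1 day (adjusted p = 0.0346). Against a floor of 3 counts over the 3-day group, it was at least 111-fold lower at 3 days. With flat 1 d replicate 1, flat 1 d replicate 2 or flat 3 d replicate 1 left out, 0 members were called. Without flat 1 d replicate 3 or flat 3 d replicate 2 there was 1 call, and the call of SMED30023337 was lost in both cases. The call of SMED30026062 was also lost without flat 3 d replicate 2 or 3.

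At 7 against 3 days on flat plates, 11 members (8.03%) were called higher and 0 lower, against 2.64% and 0.405% of all identifiers. The median log2 fold change was 1.35 against 0.19. SMED30013347 and SMED30017391 were at 0 in all libraries of 3 days and had 2.94, 2.93 and 7.60 CPM and 4.73, 6.48 and 1.17 CPM at 7 days. Against the floor of 3 counts over the group, they were at least 37.9-fold and 34.9-fold higher at 7 days, with adjusted p-values of 0.0398 and 0.0397. With any 1 of flat 3 d replicates 1, 2 and 3 or flat 7 d replicates 1 and 2 left out, between 4 and 6 members were called. Scaling by the total without the 4 abundant identifiers gave 7 higher and 1 lower, and DESeq2 called 30.

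In U-bottom plates of experiment 5 the summed member level was also above that of uncultured cells at 1 day, which was not tested. Of the 150 members, 91 had a mean above uncultured cells. Their median log2 ratio over uncultured cells was 0.28 over all 150, against 0.04 for all identifiers at the minimum levels. The median member level of single libraries overlapped, at 2.91, 2.05 and 2.81 CPM against 2.45, 2.18 and 2.01 CPM. The summed level averaged 1613 ± 188 CPM at 1 day, 1242 ± 85 CPM at 3 days and 2633 ± 607 CPM at 7 days (SD, n = 3 each). Of the 137 members, 0 were called between U-bottom and flat plates at 1 day in either direction, as were 0% of all identifiers, and the median log2 fold change was −0.03. Unadjusted, 7 members (5.11%) were under 0.05, against 5.98% of all identifiers, and DESeq2 called 1. At 3 against 1 day in U-bottom plates 0 members were called, against 0.376% of all identifiers higher and 0.0951% lower, with a median of −0.06. Here 19 members (13.9%) had an unadjusted p under 0.05, against 12.3% of all identifiers, and DESeq2 called 7. The difference between the change in U-bottom plates and that on flat plates was tested directly. Its median over the members was 0.45 against 0.04, and 0 members were called, against 0% of all identifiers higher and 0.00414% lower. Unadjusted, 17 members (12.4%) were under 0.05, against 8.34% of all identifiers, and DESeq2 called 2. U-bottom 1 d replicate 1 was the shallowest library, with 3333661 counts.

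With planarian extract the summed level of the set was higher in U-bottom plates than without it at all 3 days measured. The summed level averaged 2220 ± 191 CPM at 1 day, 2329 ± 121 CPM at 3 days and 4674 ± 84 CPM at 7 days with extract (SD, n = 3 each). At each day the summed level of all libraries with extract lay above that of all libraries without it. The median level of the members overlapped at 7 days. It was 4.39, 4.98 and 4.66 CPM with extract, against 4.42, 3.24 and 3.65 CPM without it, and the difference at 7 days was not tested. The 4 abundant identifiers took 38.8% to 44.0% of the counts with extract at 1 day, against 58.8% to 62.3% without it, and 12 to 28 members were at 0 with extract, against 30 to 48 without it. Their part in the difference was not tested.

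The test of single members found little of this at 1 day. Against U-bottom plates without extract, 2 members (1.46%) were called higher and 0 lower, against 1.1% and 0.798% of all identifiers, a share near that of all identifiers. The median log2 fold change was 0.70 against 0.06, and 105 of 137 were positive. SMED30005295 had 27.2, 122 and 30.5 CPM with extract, against 16.0, 1.26 and 7.33 CPM without it (log2 fold change 3.13, SE 0.71, adjusted p = 0.0128). SMED30001283 had 24.0, 108 and 28.8 CPM with extract, against 20.4, 14.1 and 20.5 CPM without it (log2 fold change 1.61, SE 0.44, adjusted p = 0.0484). In both, replicate 2 with extract stood far above the other two. Without it 0 members were called, as without U-bottom 1 d replicate 2 or replicate 3, and without U-bottom 1 d replicate 1 there was 1.

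At 3 days 6 members (4.38%) were called higher with extract and 0 lower, against 1.03% and 1.83% of all identifiers, with a median log2 fold change of 0.77 against 0.17. SMED30001376 had 259, 229 and 180 CPM with extract, against 28.2, 36.1 and 7.45 CPM without it. Its log2 fold change was 3.13 (SE 0.58, adjusted p = 0.00082) and held under every alternative tried. SMED30028750 had 19.9, 10.0 and 18.5 CPM with extract and was at 0 in all 3 libraries without it, which makes it at least 127-fold higher against the floor of 3 counts over that group (adjusted p = 0.00589). Without U-bottom 3 d replicate 1 or 3 there were 3 calls, without extract 3 d replicate 2 there were 2, and DESeq2 called 12.

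With extract the summed level at 3 days lay close to that at 1 day. At 3 against 1 day 0 members were called, against 0.0579% of all identifiers higher and 0.0869% lower, and the median log2 fold change was −0.23 against 0.02. Unadjusted, 2 members (1.46%) were under 0.05, against 7.94% of all identifiers, and DESeq2 called 0. The change between 1 and 3 days with extract minus that without it had a median of 0.35 over the members, against 0.00, and 0 were called, against 0.0165% of all identifiers higher and 0.00414% lower. Here 9 members (6.57%) were under 0.05 unadjusted, against 9.36% of all identifiers, and DESeq2 called 1. The median was −0.02 without U-bottom 1 d replicate 1 and between that value and 0.48 with any other library left out. SMED30012104, a high member in experiment 3, had 260, 150 and 244 CPM at 1 day and 202, 171 and 121 CPM at 3 days with extract, with overlapping libraries.

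At 7 against 3 days with extract, 16 members (11.7%) were called higher and 4 (2.92%) lower, against 6.2% and 8.53% of all 24174 identifiers tested. Most members passed in neither direction. The median log2 fold change was 1.07, against 0.44 for all identifiers. These values depend on the scaling. Scaled by the total without the 4 abundant identifiers, the calls were 7 higher and 9 lower, and the medians were 0.03 for the members and −0.41 for all identifiers. With RLE size factors the calls were 22 higher and 3 lower, and the medians were 1.60 and 1.03. Leaving out any 1 of the extract 3 d replicates 1, 2 and 3 gave 13 calls, and DESeq2 gave 39.

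SMED30002802 had 1445, 1525 and 1226 CPM at 7 days with extract, against 106, 164 and 182 CPM at 3 days (log2 fold change 4.27, SE 0.60, adjusted p = 3.29e-06). SMED30018569 had 205, 193 and 143 CPM at 7 days, against 13.1, 9.39 and 20.8 CPM at 3 days (log2 fold change 4.70, SE 0.76, adjusted p = 2.82e-05). Both calls held under every alternative tried. Of the members lower at 7 days, SMED30020501 had 7.92, 0.355 and 4.20 CPM, against 146, 105 and 79.3 CPM at 3 days (log2 fold change −3.67, SE 0.56, adjusted p = 1.1e-05). SMED30012104 had 14.6, 0.889 and 8.55 CPM at 7 days, against 202, 171 and 121 CPM at 3 days (log2 fold change −3.31, SE 0.72, adjusted p = 0.00128). Their calls held under every alternative as well. SMED30017955 and SMED30011773, at means of 0.237 and 0.115 CPM at 7 days against 22.4 and 7.87 CPM at 3 days, were also lower (adjusted p = 0.0278 and 0.0139). Their calls were lost without extract 3 d replicate 3, among others.

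At 7 days the 5 highest members held 61.9% of the summed level with extract, 55.1% in U-bottom plates without it and 54.2% on flat plates. In single libraries of 1 and 3 days the 5 highest held 35.5% to 44.5% with extract, 32.0% to 46.0% in U-bottom plates and 42.7% to 56.5% on flat plates. In the median member, the log2 ratio of 7 days over uncultured cells was 0.48 with extract, 0.24 in U-bottom plates and 0.01 on flat plates. For all identifiers at the minimum levels these medians were −1.34, −0.44 and −0.18 on the same scale.

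**Figure D3:**
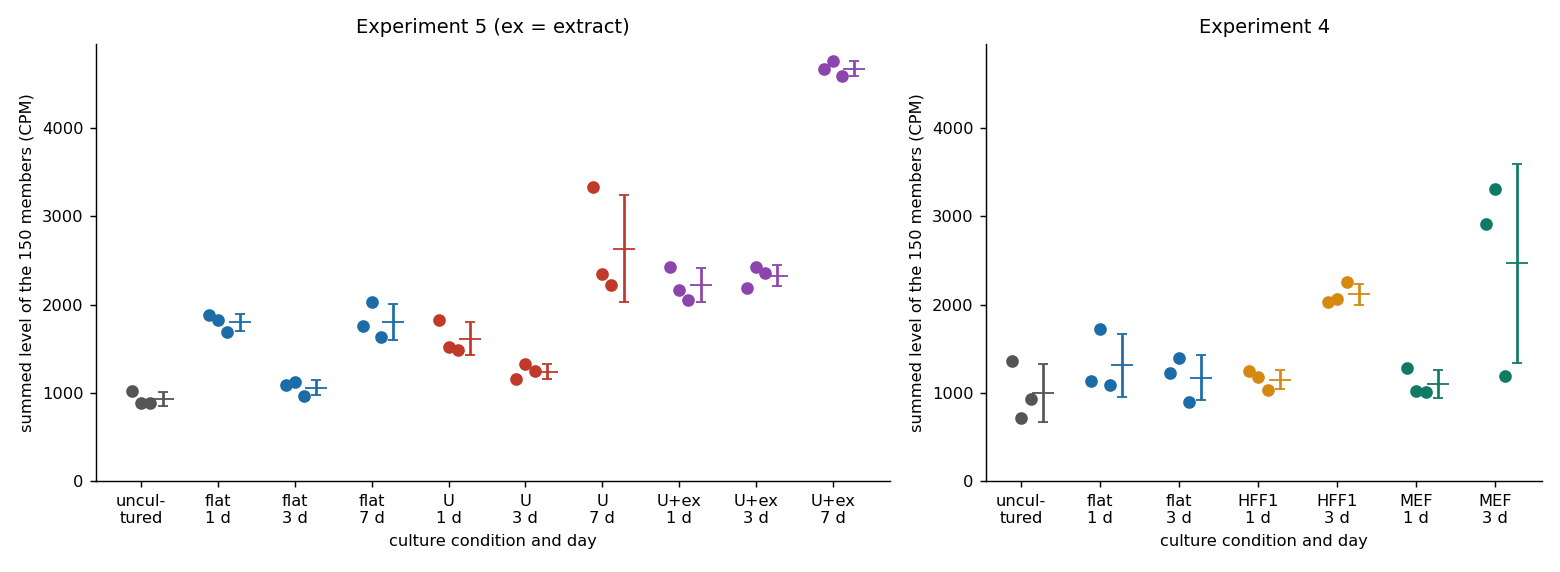
Summed level of the 150 members (CPM, y axis) in each library of experiment 5 (left) and experiment 4 (right) by condition and day (x axis; U, U-bottom plates; U+ex, with extract). Points are libraries, and bars give mean and SD. On flat plates of experiment 5 the level peaked at 1 day at 1800 CPM, was 1061 CPM at 3 days and 1807 CPM at 7 days, and in experiment 4 the highest levels were on feeders at 3 days.

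In experiment 4 the summed level did not separate the days on flat plates. It averaged 1004 ± 330 CPM in uncultured cells, 1314 ± 354 CPM at 1 day and 1173 ± 253 CPM at 3 days (SD, n = 3 each), and the libraries overlapped. Of the 150 members, 43 had a mean under 1 CPM over the experiment. The low-count filter left 132 members. At 1 day against uncultured cells 14 members (10.6%) were called higher and 1 (0.758%) lower, shares below the 13.5% and 3.14% of all 26107 identifiers. The median log2 fold change was 0.48 against 0.30, and with 1 library left out it lay between 0.23 (without flat 1 d replicate 2) and 0.85 (without uncultured replicate 1). Without flat 1 d replicate 2 there were 6 calls, without uncultured replicate 1, 2 or 3 there were 5, 4 and 5, and DESeq2 gave 34.

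SMED30005295 had 40.1, 237 and 51.5 CPM at 1 day, against 2.43, 0.306 and 1.98 CPM in uncultured cells (log2 fold change 6.18, SE 0.89, adjusted p = 6.68e-05). SMED30018569 had 29.8, 215 and 33.6 CPM at 1 day, against 2.33, 0.374 and 2.71 CPM in uncultured cells (log2 fold change 5.72, SE 0.90, adjusted p = 0.000213). In both, all day-1 libraries lay above the uncultured ones and replicate 2 was the highest. That library also detected 31993 identifiers, against 23163 and 24855 in the other two. SMED30013841, the member called lower, had 2.29, 2.51 and 0.797 CPM at 1 day, against 19.3, 14.7 and 23.2 CPM in uncultured cells (log2 fold change −3.12, SE 1.08, adjusted p = 0.0464), a call lost under 11 alternatives. Between 3 and 1 day on flat plates 0 members were called, as were 0% of all identifiers, with a median of 0.08, which ranged over −0.17 to 0.58 with 1 library left out. Unadjusted, 8 members (6.06%) were under 0.05, against 8.16% of all identifiers, and DESeq2 called 4.

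On feeders the mean summed level of the members was higher at 3 days than at 1 day. The summed level was 2118 ± 121 CPM at 3 days against 1153 ± 109 CPM at 1 day on HFF1, and 2470 ± 1125 CPM against 1103 ± 155 CPM on MEF (SD, n = 3 each). On HFF1 the groups did not overlap. On MEF, replicate 3 at 3 days had 1191 CPM, against 2910 and 3309 CPM in the other two, and lay within the range of 1 day. That replicate had 19777036 counts, against 7480255 and 6775383 in the others. The number of detected identifiers was also higher, at 29839 to 31493 on HFF1 at 3 days against 21311 to 28944 at 1 day, and 26870 to 30994 against 20362 to 22337 on MEF. The 4 abundant identifiers took 54.2% to 58.9% of the counts on HFF1 at 3 days, against 27.0% to 30.5% at 1 day. On MEF they took 48.9% to 58.2% against 31.1% to 36.5%. The parts of detection, depth and this share in the difference were not tested. At 3 against 1 day the median log2 fold change was 1.20 against 0.94 for all identifiers on HFF1, and 1.78 against 1.44 on MEF. Of the 132 members tested, 42 on HFF1 and 46 on MEF had a negative one. With 1 library left out the members' median was lower in every case, between 0.77 and 1.20 on HFF1 and between 0.94 (without MEF 3 d replicate 1) and 1.35 on MEF.

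On HFF1 0 members were called in either direction, against 0.00383% of all identifiers higher and 0.0115% lower. Unadjusted, 17 (12.9%) were under 0.05, against 17.4% of all identifiers, and DESeq2 called 10. On MEF 2 members (1.52%) were called higher and 0 lower, against 0.709% and 0.862%. These were SMED30018569, with 320, 537 and 104 CPM at 3 days against 18.2, 29.8 and 20.6 CPM at 1 day (log2 fold change 3.01, SE 0.79, adjusted p = 0.0491), and SMED30005427. SMED30005427, named because only 2 were called, averaged 3.76 CPM at 3 days and was at 0 in all libraries of 1 day, at least 42.6-fold higher against the floor of 3 counts over the group. Leaving out MEF 1 d replicate 1, 2 or 3 or MEF 3 d replicate 1 or 2 left 0 calls, leaving out MEF 3 d replicate 3 gave 7, and DESeq2 gave 60.

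The change between 1 and 3 days on MEF minus that on flat plates had a median of 1.95 over the members and 1.17 over all identifiers. With 1 library left out the members' median lay between 0.60 (without flat 1 d replicate 2) and 1.99. No member was called, that is 0 of 132, as were 0% of all identifiers in both directions. Unadjusted, 32 members (24.2%) were under 0.05, against 17.5% of all identifiers, and DESeq2 called 22. No member passed the test between feeders and flat plates at 1 day. Called were 0 members on HFF1 and 0 on MEF, as were 0% of all identifiers, with medians of −0.56 and −0.85 against −0.36 and −0.58. With 1 library left out these medians were −0.74 to 0.15 on HFF1 and −0.98 to −0.12 on MEF, with the upper value without flat 1 d replicate 2 in both. Unadjusted, 13 members (9.85%) on HFF1 and 20 (15.2%) on MEF were under 0.05, against 9.95% and 13.8% of all identifiers, and DESeq2 called 3 and 8.

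The summed level of the set was higher in AggreWell than in flat plates at 1 day in experiment 2. The summed level was 3724 ± 331 CPM in AggreWell against 2420 ± 200 CPM in flat plates (SD, n = 3 each), and the groups did not overlap. Of the 123 members tested, 23 (18.7%) were called higher and 1 (0.813%) lower, against 11.8% and 9.15% of all 18266 identifiers. The median log2 fold change was 0.57 against −0.02, and 41 members had a negative one. The median member level averaged 7.30 CPM in AggreWell and 6.62 CPM in flat plates. The 4 abundant identifiers took 44.5% to 67.5% of the counts in AggreWell and 58.9% to 65.5% in flat plates. Their part in the difference was not tested. SMED30005225 had 47.4, 155 and 140 CPM in AggreWell, against 41.3, 34.4 and 37.6 CPM in flat plates (log2 fold change 1.69, SE 0.38, adjusted p = 0.00792). SMED30033359 had 7.07, 5.48 and 8.46 CPM against 0.432, 3.15 and 0.862 CPM (log2 fold change 2.26, SE 0.75, adjusted p = 0.0413). SMED30027524 was lower, with 4.54, 6.80 and 3.03 CPM in AggreWell against 16.1, 10.2 and 17.1 CPM in flat plates (log2 fold change −1.49, SE 0.50, adjusted p = 0.0422). Without AggreWell replicate 2 or flat replicate 1 there were 4 calls, and without flat replicate 3 there were 14.

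Between aggregates and non-aggregating cells of experiment 1 no member passed the test. The summed level was 3402 ± 1119 CPM in aggregates and 3176 ± 646 CPM in non-aggregating cells at 2 days (SD, n = 3 each). Of 129 members tested 0 were called, as were 0% of all 18241 identifiers in both directions, and the median log2 fold change was 0.09 against 0.08. Unadjusted, 6 members (4.65%) were under 0.05, against 1.67% of all identifiers, and DESeq2 called 0. Without aggregates replicate 3 there was 1 call, and with a replicate block there was 1. Deviations of same-numbered libraries correlated at 0.77, 0.38 and −0.08, and the main fit did not pair them.

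**Figure D4:**
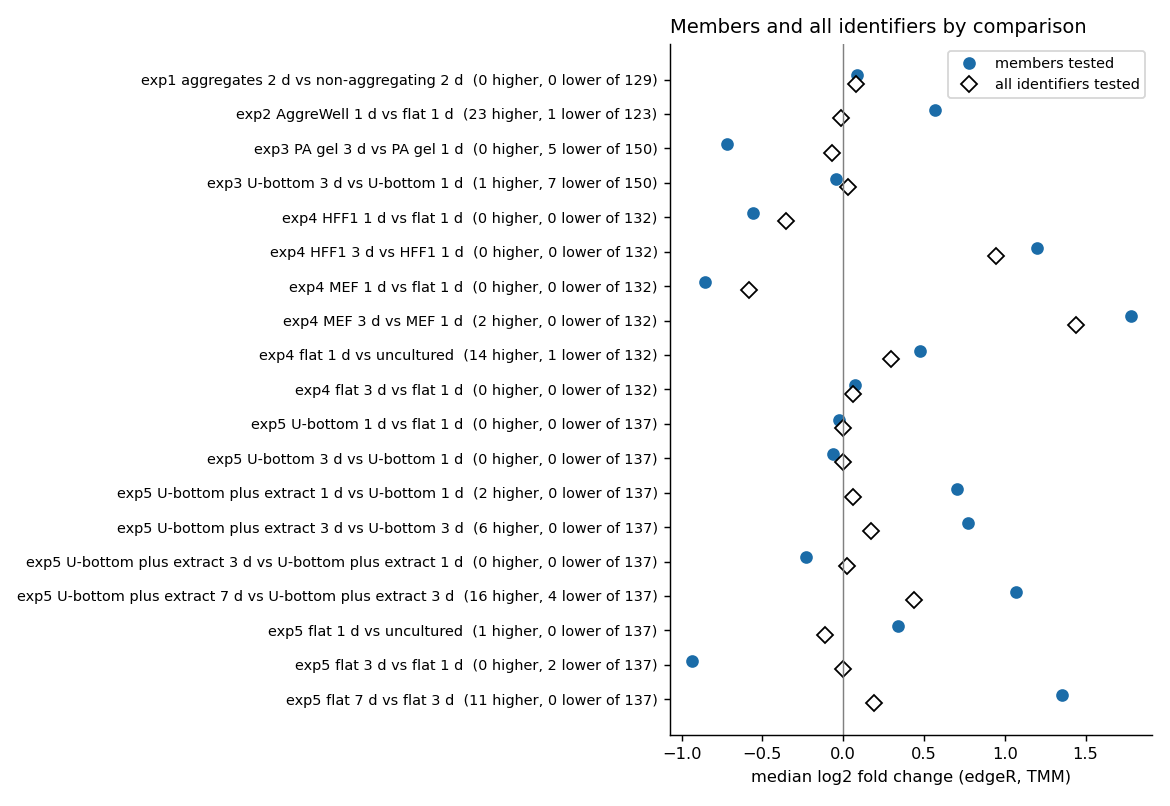
Median log2 fold change (x axis, edgeR with TMM scaling) of the members tested (filled circles) and of all identifiers tested (open diamonds) in each comparison (y axis, the group named first over the one after it, with the number of members called). The members lie furthest from all identifiers at 7 against 3 days (1.35 against 0.19) and at 3 against 1 day (−0.93 against 0.00) on flat plates of experiment 5.

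A small part of the set was called higher in comparisons of 3 experiments that share no library. AggreWell against flat plates, flat 1 d against uncultured cells in experiment 4, and 7 against 3 days with extract in experiment 5 were all called higher for 8 of the 109 members tested in all (7.34%). Among all 16278 identifiers tested in all 3, 2.45% were. These 3 comparisons are those with the most members called higher (23, 14 and 16), so the shares depend on that choice. SMED30002802, SMED30005295, SMED30018569 and SMED30005225 are among the 8, which were put together after their values were seen. Since these calls picked the 8, their levels in the 3 comparisons are a description of the choice. On flat plates of experiment 5, which were not used to pick them, the 8 together had 665 CPM at 7 days, or 36.8% of the summed level of the set, against 127 CPM and 12.0% at 3 days (means, n = 3 each). At flat 1 d of experiment 3 they held 2.73% of it. Between 1 and 3 days on feeders of experiment 4, the 8 together went from 165 to 744 CPM on HFF1. On MEF they went from 103 to 1160 CPM (means, n = 3 each), so they held much of the summed rise there. The number of the 8 called was as low as 2 in experiment 2 (without AggreWell replicate 2 or flat replicate 1), 3 in experiment 4 (without uncultured replicate 1 or 2) and 6 in experiment 5.

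SMED30005295 shows how such a member differs between experiments. In experiment 3 it had 10.5, 12.1 and 18.9 CPM at flat 1 d, against 6.90, 5.71 and 6.88 CPM in uncultured cells. In experiment 5 on flat plates it had 6.53, 1.34 and 2.36 CPM in uncultured cells, 7.42, 20.6 and 2.61 CPM at 1 day, 33.8, 35.9 and 16.4 CPM at 3 days, and 126, 149 and 95.7 CPM at 7 days. The day-3 libraries thus lay above most of day 1, the opposite order to experiment 3. In AggreWell SMED30005295 had 85.3, 152 and 156 CPM, against 76.5, 71.6 and 63.1 CPM in flat plates, a comparison that helped to pick it. SMED30001283 also had its highest libraries at 7 days of experiment 5, with 10.3, 7.58 and 5.95 CPM in uncultured cells, 16.9, 16.9 and 10.3 CPM at 1 day, 33.3, 61.2 and 33.0 CPM at 3 days and 181, 234 and 153 CPM at 7 days on flat plates.

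Ranked over the flat steps of experiments 4 and 5 by the smallest fold change in the direction of the peak, the first of 127 members tested in both were SMED30033611, SMED30024726 and SMED30026509. They were picked on this pattern, so their values are a description of those identifiers and not of the set. SMED30026509 had 4.49, 2.55 and 1.83 CPM in uncultured cells of experiment 4, 74.4, 38.6 and 45.8 CPM at 1 day and 2.95, 14.5 and 2.87 CPM at 3 days on flat plates. Its day-1 libraries lay above all others of that course. The log2 fold change at 1 day was 4.48 (SE 0.92, adjusted p = 0.00305), while that at 3 against 1 day was −3.46 (SE 0.88, adjusted p = 0.47) and did not pass. In experiment 5 it had 2.47, 3.99 and 9.46 CPM at 1 day, with overlapping libraries and no call in either step (adjusted p = 0.878 and 0.866). SMED30033611 varied widely among libraries, with 247, 85.4 and 0.217 CPM at flat 1 d of experiment 5 and 155, 0.974 and 0 CPM at flat 1 d of experiment 4. SMED30024726 was near its floor in experiment 5, with 0.515, 4.93 and 0 CPM at flat 1 d and 0 in all 3-day libraries.

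At the other end, the 3 members with the lowest mean fold change at flat 1 d over experiments 4 and 5 were SMED30024789, SMED30013804 and SMED30003847. SMED30003847 had 10.5, 8.73 and 12.6 CPM at flat 1 d of experiment 3, against 5.15, 2.87 and 1.47 CPM in uncultured cells. In experiment 4 it had 0.148, 0.139 and 0 CPM at flat 1 d, against 3.41, 0.747 and 1.04 CPM in uncultured cells, the opposite order. SMED30024789 was at 0 in every flat 1 d library of experiment 5, against 16.3, 14.8 and 27.7 CPM in those of experiment 3.

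**Figure D5:**
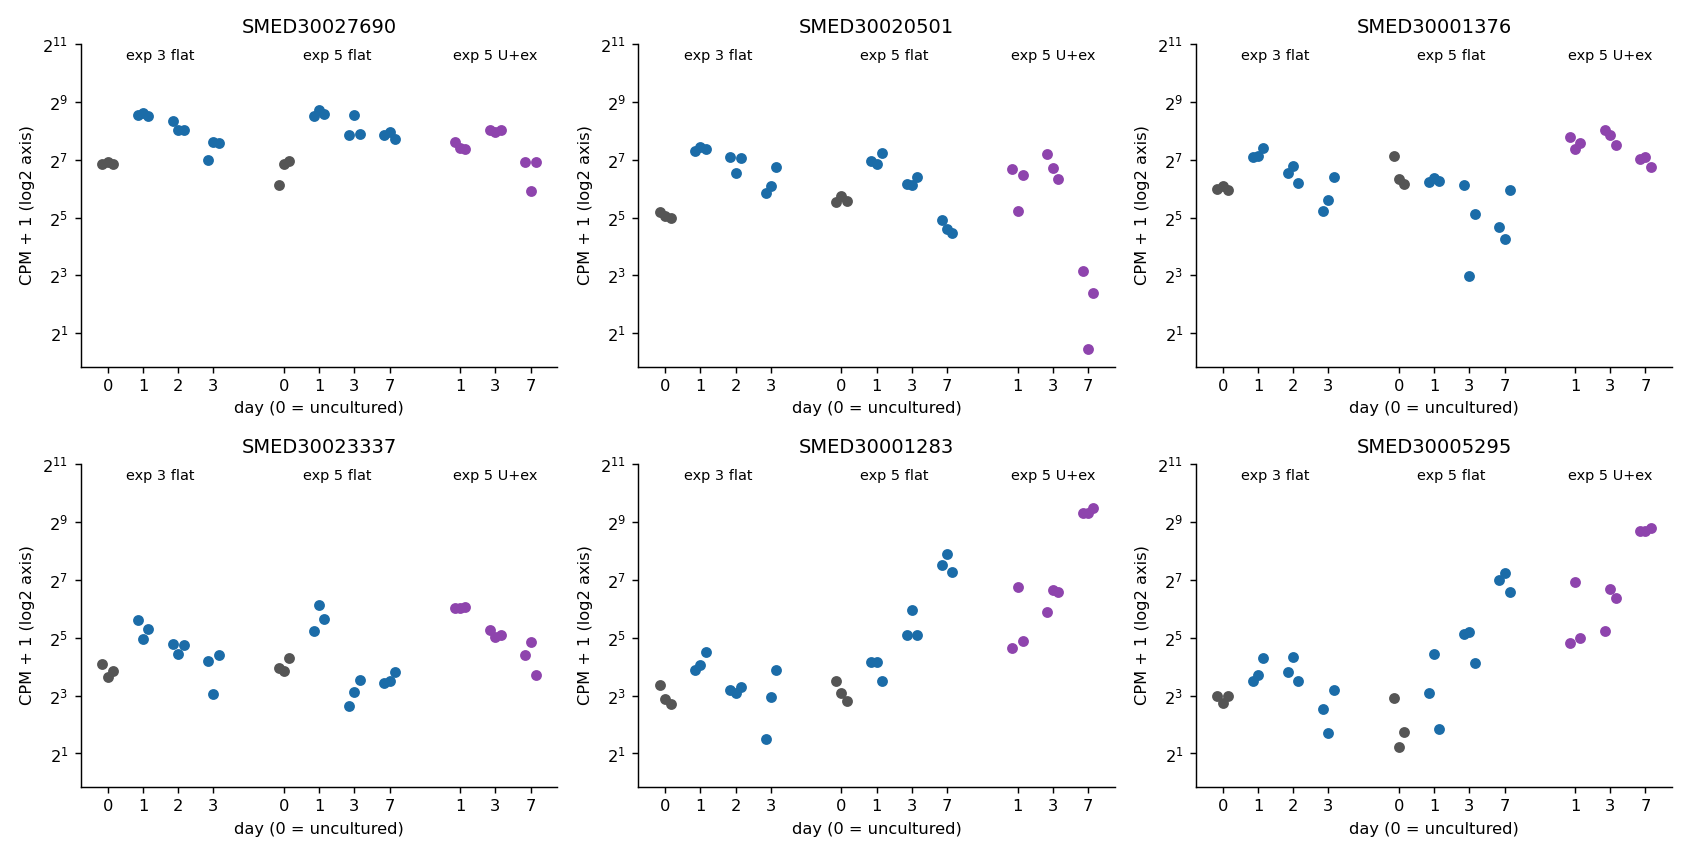
Level plus 1 CPM (y axis, log2 axis) of 6 members by day (x axis, 0 for uncultured cells) on flat plates of experiments 3 and 5 (blue, uncultured cells in grey) and in U-bottom plates with extract (purple). Each point is a library. SMED30027690 and SMED30023337 have their highest mean at 1 day on flat plates in both experiments, while SMED30001283 and SMED30005295 have it at 7 days in experiment 5.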

How the data were processed

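RNA of 89 SiRNeoblast libraries was read from 1 deposited table per experiment. The authors deposited estimated counts without normalization for experiments 1 to 3, seen in the files as values that are not whole, and whole counts for experiments 4 and 5. Per the labels' protocols, cDNA was made with template switching, and PCR product was fragmented by Tn5. The submitters' processing notes list kallisto 0.46.2 and R 4.0.5, without saying for what. The reference transcriptome and build were not given in the sources used here. The files pair no identifier with a gene name. A list of marker names for neoblasts and other cell types therefore matched 0 identifiers, so the labelled cell type was not checked.

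Estimated counts were rounded. CPM were computed per library without the 4 most abundant identifiers (SMED30032887, SMED30027385, SMED30027845 and SMED30026765). Within each experiment all groups were fitted with edgeR 4.0.16 in R 4.3.3 (TMM scaling, default filterByExpr on groups, 1 mean per group), on every identifier. The quasi-likelihood F test was two-sided, with Benjamini-Hochberg adjustment over all identifiers and a threshold of 0.05. Each SE is the size of the log2 fold change over the root of its F. The scripts were tested on simulated data. The members, the comparisons and the lists were chosen with earlier results of these data known. Of 22 comparisons, 5 (3 days with against without extract, 7 against 3 days with extract and the 3 differences between changes) were added after seeing the data.

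Named identifiers were those with the most negative difference, at the edge and with the highest day-1 mean, and per comparison up to 2 higher and 2 lower furthest from 0 on the log2 scale, taken among called members averaging 2 CPM or more without overlap. Added were 3 each at the ends of the flat steps of experiments 4 and 5. SMED30017473, SMED30025553 and SMED30005427, and identifiers carried into a comparison that did not name them, were chosen after their values were seen. Deviations of same-numbered replicates from their group means did not correlate above 0.1 in every pair of any comparison with 3 pairs. In the PA gel comparison, which has 2 pairs, they correlated at 0.12 and 0.18. Replicate numbers follow the sample titles, which differ from the column numbers for flat 3 d and PA gel 3 d replicate 2 of experiment 3. The numbers were not taken as pairing, a question that this check cannot settle. No pair of libraries of the same group was identical or agreed within sampling noise. Pairs across groups were not compared. Alternatives were RLE size factors, scaling by the total, no low-count filter, a replicate block, fitting only the compared groups, DESeq2 1.42.0, each library left out, and other forms of the rule.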

Additional observations from a re-analysis of the deposited data

How the results depend on the processing

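Of 51 calls of named members recomputed under the alternatives, 435 outcomes kept the threshold, 163 lost it and 0 reversed. Median fold changes of the members stayed within their spread in 183 outcomes, moved in 96 and took another sign in 20. The causes were not tested.

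By DESeq2 the numbers of members called were 16 for U-bottom 3 d against 1 d and 14 for PA gel 3 d against 1 d in experiment 3. In experiment 4 they were 34 for flat 1 d against uncultured, 4 for flat 3 d against 1 d, 3 and 8 for HFF1 and MEF against flat at 1 d, 10 for HFF1 and 60 for MEF at 3 d against 1 d, and 22 for the MEF change minus the flat change. In experiment 5 they were 2 for flat 1 d against uncultured, 14 for flat 3 d against 1 d, 30 for flat 7 d against 3 d, 1 for U-bottom against flat at 1 d, 6 and 12 for extract against none at 1 d and 3 d, 7 for U-bottom 3 d against 1 d, 39 for extract 7 d against 3 d, and 1 and 2 for the differences between changes with extract and in U-bottom plates.

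Without the low-count filter the counts were 18 for U-bottom and 15 for PA gel 3 d against 1 d in experiment 3, 0 for MEF 3 d against 1 d, and in experiment 5 4 for flat 1 d against uncultured, 12 for flat 3 d against 1 d, 21 for flat 7 d against 3 d, 6 and 10 for extract against none at 1 d and 3 d, 7 for U-bottom 3 d against 1 d, and 2 for each difference between changes. With only the compared groups fitted they were 4 (U-bottom) and 16 (PA gel) in experiment 3, 5 for flat 1 d against uncultured in experiment 4, and in experiment 5 7 for flat 1 d against uncultured, 0 for flat 3 d against 1 d, 7 for flat 7 d against 3 d and 4 for extract against none at 1 d. RLE size factors gave 15 for MEF 3 d against 1 d and 1 for extract against none at 1 d, and scaling by the total gave 8 and 1, and 7 for flat 1 d against uncultured in experiment 4. RLE also moved the median of all identifiers for flat 1 d against uncultured in experiment 4 to 0.61 and for MEF 3 d against 1 d to 2.18.

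A replicate block gave 9 calls for flat 1 d against uncultured and 0 for MEF 3 d against 1 d in experiment 4, 1 for extract against none at 1 d, 11 for AggreWell against flat and 1 for aggregates against non-aggregating cells. In experiment 1 same-numbered libraries correlated at 0.77, 0.38 and −0.08.

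With each library left out in turn, the counts ranged over 4 to 13 for U-bottom and 1 to 4 for PA gel in experiment 3, 4 to 15 for flat 1 d against uncultured and 0 to 7 for MEF in experiment 4, 1 to 1, 0 to 2 and 4 to 13 for the flat steps to 1 d, 3 d and 7 d in experiment 5, 0 to 3 and 2 to 5 for extract against none at 1 d and 3 d, 13 to 22 for extract 7 d against 3 d, 4 to 23 for AggreWell and 0 to 1 for aggregates. The comparisons with 0 calls elsewhere stayed at 0. Where 1 library remained in a group, it was taken to vary like the others.

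Of the 150 members, the rule kept 26 on CPM of all identifiers and 35 on TMM-scaled CPM. On TMM-scaled CPM without the 4 most abundant identifiers it kept 119. With the 4 in the total, the fixed minimums are stricter by construction. On CPM of all identifiers, the larger share of the 4 at flat 1 d also lowers the ratio over uncultured cells. These parts were not separated. With 1 library left out the rule kept 86 to 138. Low levels limit what can be read from single members, since 43 averaged under 1 CPM in experiment 4 and 21 in experiment 5. The part of depth in these low levels was not tested.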
